A study of Mus musculus with 12 samples.

Results

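NP-MTAza, a micelle that carried 5-aza-2′-deoxycytidine (Aza), metformin and tolvaptan together, was compared with phosphate-buffered saline (PBS) in mouse kidney cells. The members were all libraries of those labels, 3 NP-MTAza and 3 PBS, or 6 of the 12 libraries of the series, and every CpG that carried at least 5 reads in each of the 6. That left 815900 CpGs of the 6904693 listed in at least 1 of them. Every library, treated or not, came from Pkd1 heterozygous proximal renal tubule epithelial cells. Per the study these are a line isolated from Pkd1 flox/-:TSLargeT mice, used at passage 3 and treated for 24 h. The micelle delivered 50 µM Aza, 300 µM metformin, conjugated to the polymer of its shell, and 10 µM tolvaptan. Neither group received an empty micelle, so the carrier and its 3 drugs cannot be told apart in this comparison. Nothing in the labels says that the replicates were separate cultures, so the spread between them may be technical.

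In mammalian cells a methyl group is placed on the cytosine of CpG dinucleotides, and the maintenance enzyme DNMT1 copies the pattern onto the new strand after each round of replication. Aza, a cytidine analogue, is built into replicating DNA and traps the DNMT enzymes, so that daughter strands stay unmethylated. Metformin is known as an activator of the energy sensor AMPK, and tolvaptan blocks the vasopressin V2 receptor, which raises cyclic AMP in cyst-lining cells. CpG islands at the promoters of housekeeping genes are normally free of methylation, while gene bodies and the sequence between genes are normally methylated.

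The assay was reduced representation bisulfite sequencing, which reads fragments cut at CCGG by the enzyme MspI. A level below is the percentage of reads at a CpG, or over a set of CpGs, that were methylated, and a loss is the PBS mean minus the NP-MTAza mean in percentage points. The PBS libraries held 44679655, 29906260 and 65817118 reads over their listed CpGs, and the NP-MTAza libraries 38105573, 47709886 and 57671337. The median depth at a shared CpG was between 12 and 23 reads. The 815 deepest CpGs held 39.3% of all reads at shared CpGs and 62.3% of those in promoters, so that means in which each CpG counts equally are given beside means over reads. PBS replicate 2, the shallowest library, stood apart at unmethylated sequence. Its level on mitochondrial DNA was 2.76%, against 0.290% and 0.280% in the other PBS libraries and 0.286% to 0.383% after NP-MTAza. NP-MTAza replicates 1 and 2 had been sequenced with 2 sets of barcodes and replicate 3, like every PBS library, with a single set. Of 10 proximal tubule marker genes only Lrp2, a receptor for filtered proteins, had a measurable promoter, at 17.9% in PBS. The promoter of Cdh1, the epithelial adhesion gene E-cadherin, was at 82.6%, and that of Krt18, also an epithelial marker, at 48.1%. The 3 measured promoters of other nephron segment markers were at 22.8% to 80.6%, and the 2 of markers of other cells at 72.1% and 95.4%. Methylation of so few promoters does not show whether the cells express them.

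Methylation was lower in every NP-MTAza library than in every PBS library. Over all reads at shared CpGs the PBS libraries stood at 69.7%, 71.2% and 69.7%, and the NP-MTAza libraries at 48.0%, 48.5% and 46.7%. The groups did not overlap, and the gap was many times the spread within either (SD 0.873 points in PBS and 0.911 after NP-MTAza). The loss was 22.5 points, with 21.3 to 24.6 points over the 9 pairs of a treated and a PBS library (exact two-sided permutation test, p = 0.1, the smallest that 3 libraries against 3 can give). With each CpG counted equally the loss was 22.8 points. NP-MTAza replicate 3, with a single set of barcodes like PBS, was the lowest of the treated libraries.

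The stretches of genome shown next are of methylated CpGs that lost 43.9 to 63.3 points by stretch, and of methylated CpGs that lost little. All are the plus strand of mm9, 5′ to 3′, with the CpGs measured in all 6 libraries in capitals, and none lies in an annotated UTR. The first 6 are stretches where methylation fell. They are in the promoter window of Cebpe (chr14:55330558-55330686, overlapping a coding exon), the promoter window of Msh4 (chr3:153568674-153568795, also overlapping a coding exon), the promoter window of Eif4ebp1 (chr8:28370071-28370193, outside exons), an intron of Bach2 (chr4:32624507-32624656), and intergenic sequence near Gpr137b (chr13:13432259-13432411) and near Vav3 (chr3:109072760-109072916).
Cebpe: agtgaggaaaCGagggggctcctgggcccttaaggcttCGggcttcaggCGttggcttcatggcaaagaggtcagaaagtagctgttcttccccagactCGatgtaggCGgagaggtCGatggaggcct
Msh4: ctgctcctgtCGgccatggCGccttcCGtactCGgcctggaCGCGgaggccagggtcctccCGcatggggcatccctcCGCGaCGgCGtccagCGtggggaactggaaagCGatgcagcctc
Eif4ebp1: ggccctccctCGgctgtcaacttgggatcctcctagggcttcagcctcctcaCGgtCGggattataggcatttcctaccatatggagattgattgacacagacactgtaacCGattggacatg
Bach2: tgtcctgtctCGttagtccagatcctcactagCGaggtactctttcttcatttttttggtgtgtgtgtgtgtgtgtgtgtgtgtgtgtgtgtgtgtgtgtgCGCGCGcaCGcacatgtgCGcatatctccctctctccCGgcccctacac
near Gpr137b: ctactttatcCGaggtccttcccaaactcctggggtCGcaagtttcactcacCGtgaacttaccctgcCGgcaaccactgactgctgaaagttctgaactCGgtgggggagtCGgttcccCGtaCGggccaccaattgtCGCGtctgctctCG
near Vav3: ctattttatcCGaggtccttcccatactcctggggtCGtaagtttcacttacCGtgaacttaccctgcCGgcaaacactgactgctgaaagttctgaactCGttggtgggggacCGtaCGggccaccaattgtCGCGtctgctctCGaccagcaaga

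The next 3 stretches kept most of their methylation. They are in the promoter window of Pou3f1 (chr4:124334130-124334286, outside exons) and in coding exons of Dact3 (chr7:17471044-17471198) and Pcdh8 (chr14:80168383-80168521).
Pou3f1: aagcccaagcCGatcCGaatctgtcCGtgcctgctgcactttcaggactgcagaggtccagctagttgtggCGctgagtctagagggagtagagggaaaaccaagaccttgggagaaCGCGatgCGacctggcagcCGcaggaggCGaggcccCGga
Dact3: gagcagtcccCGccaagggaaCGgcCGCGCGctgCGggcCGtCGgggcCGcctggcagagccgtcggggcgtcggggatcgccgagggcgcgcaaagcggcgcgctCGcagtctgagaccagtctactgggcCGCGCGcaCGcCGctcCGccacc
Pcdh8: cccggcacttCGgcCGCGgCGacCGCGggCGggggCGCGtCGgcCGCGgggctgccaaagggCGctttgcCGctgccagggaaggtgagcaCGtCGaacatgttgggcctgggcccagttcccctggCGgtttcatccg

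The Bach2 stretch, with 8 measured CpGs, read 97.1%, 99.1% and 97.5% in PBS and 51.9%, 53.6% and 52.6% after NP-MTAza. The Eif4ebp1 stretch, with 4 CpGs, went from 88.6%, 93.8% and 90.4% to 27.4%, 33.9% and 21.7%. In both, the treated libraries lay close together and far below PBS. The Pcdh8 stretch, with 17 measured CpGs in 139 bases, read 91.7%, 94.3% and 94.1% in PBS and 80%, 87.1% and 91.0% after NP-MTAza. The Pou3f1 stretch, with 10 CpGs, read 79.1%, 88.6% and 93.2% and then 89.4%, 91.4% and 83.5%, so its groups overlapped. CpG number alone did not separate the sets, since the Msh4 stretch holds 13 CpGs in 122 bases and went from 97.5%, 98.2% and 97.1% to 59.4%, 39.2% and 62.4%.

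The loss grew with the level at which a CpG started. CpGs were classed by their level over the pooled PBS reads. The 357336 CpGs that began at 90% or more, the largest class, stood at 95.6%, 96.4% and 95.5% in PBS and at 62.8%, 63.3% and 61.9% after NP-MTAza, a loss of 33.2 points (32.2 to 34.6 over the 9 pairs). CpGs that began at 70 to 90% lost 28.1 points, those at 50 to 70% lost 21.8, those at 30 to 50% lost 14.8 and those at 10 to 30% lost 7.0. As a share of the starting level the losses were much closer to each other. The treated level was 65.4% of the PBS level in the top class, 66.6% at 70 to 90%, 63.5% both at 50 to 70% and at 30 to 50%, and 66.8% at 10 to 30%. In each of these 5 classes the treated libraries were all below PBS (exact permutation test, p = 0.1).

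Below 10% there was little to lose, and the result turned on PBS replicate 2. The 161433 CpGs of this class read 1.44%, 3.82% and 1.34% in PBS and 1.32%, 1.25% and 1.16% after NP-MTAza. The loss was 0.955 points with all 6 libraries and 0.144 points without PBS replicate 2, whose mitochondrial level was raised in the same way. Because the classes were cut on PBS reads, some of the highest readings in PBS are counting error. With the classes cut on 1 PBS library and the loss taken against the other 2, the top class lost 32.4, 32.1 and 32.4 points over reads, depending on the library used.

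**Figure D1:**
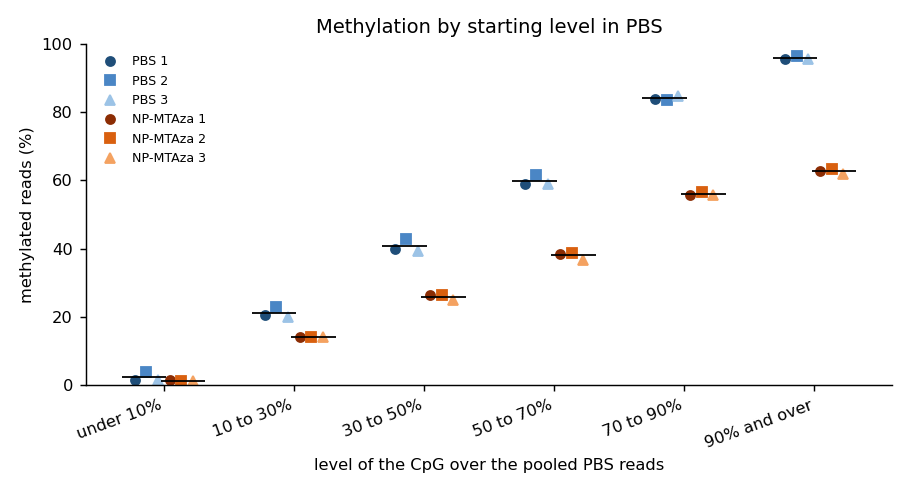
Percentage of methylated reads (vertical axis) in each of the 6 libraries for CpGs grouped by their level over the pooled PBS reads (horizontal axis). Points are libraries and bars are group means, and the treated points lie at 62.8%, 63.3% and 61.9% where PBS is at 95.5% or more.

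At single CpGs the fully methylated state gave way to an intermediate level. Over the pooled reads of each group, CpGs at 90% or more made up 43.8% of shared CpGs in PBS and 0.579% after NP-MTAza, while CpGs between 40% and 60% rose from 7.05% to 28.4%. The share under 10% went from 19.8% to 22.4%. At this depth single values are coarse, so the 25714 CpGs of the top class at a depth of 20 reads in each library were taken apart. Their median level after NP-MTAza was 63.8%, 64.3% and 62.1%, against 96.7%, 97.3% and 96.7% in PBS, and the middle 80% of them ran from 51.3% to 75.0% over the pooled treated reads. Only 0.315% were still at 90% or more. These are averages over many cells, and a level near 63% does not show how the methylated strands were spread among cells or alleles. Across shared CpGs, levels in a pair of PBS libraries had Spearman coefficients of 0.831 to 0.842, and in a pair of treated libraries 0.707 to 0.728. A treated and a PBS library gave 0.735 to 0.767. Within the top class the order was the other way, with 0.0451 to 0.0619 in PBS and 0.165 to 0.182 after NP-MTAza. These coefficients are over CpGs, which are not replicates and differ in depth.

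**Figure D2:**
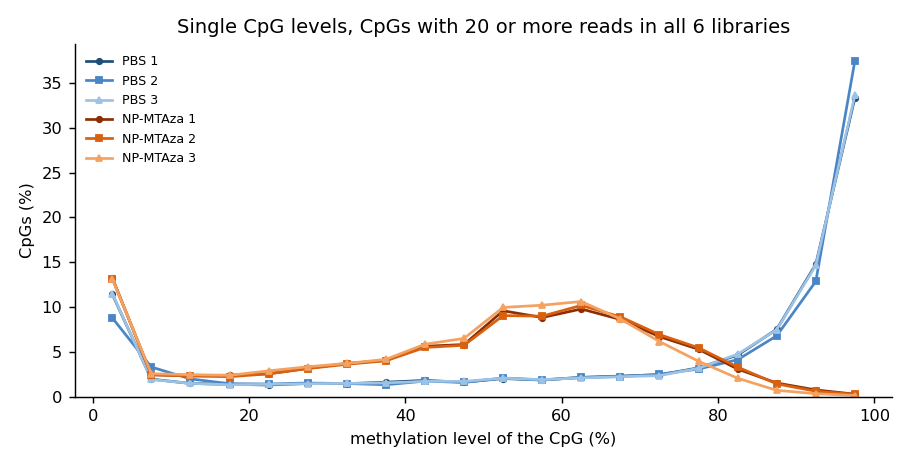
Share of CpGs (vertical axis, %) at each methylation level (horizontal axis, bins of 5 points) in each library, for CpGs at a depth of 20 reads or more in each. The PBS peak near 100% is replaced after NP-MTAza by a broad hump that includes the median of 62.1% to 64.3% of the fully methylated class.

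A single CpG was called where a likelihood ratio test on the reads pooled by group gave a Benjamini-Hochberg q under 0.01 and the groups differed by 35 points or more. This found 211494 hypomethylated CpGs, 25.9% of those tested, and 39 hypermethylated CpGs, 0.00478%. All 3 treated libraries were under all 3 PBS libraries at 51.2% of CpGs and over them at 0.111%. Pooling leaves the spread between libraries out of the test. With a chi-square test scaled by that spread, chosen after seeing the data, 184016 CpGs were called lower and 20 higher, and limma on single libraries called 45116 lower and 3 higher. An F test with the same scaling called 0 in either direction, although 187615 CpGs that differed by 35 points or more were lower, and 21 higher, at an unadjusted p under 0.05. Calls of loss covered 10.3% of promoter CpGs, 33.4% of gene body CpGs and 29.8% of intergenic CpGs. Of the top class 44.5% were called and 82.0% were lower in all 9 pairs. Of the 39 gains, 32 were at CpGs that began under 30%, and at 29 of them every treated library was above every PBS library.

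Called CpGs within 500 bases of each other were joined into regions. There were 98786 regions of loss and 24 of gain, after 14 of mixed direction were removed. From the CpGs called by limma there were 32330 and 2, from those of the F test, which called none, 0 and 0, and with 1 library left out 33 to 76 regions of gain. Gene bodies held 47757 of the regions of loss, intergenic sequence 41072 and promoters 9848. A single called CpG made up 48429 of them, and 677 held 10 or more. Of the 24 regions of gain 23 were a single CpG. The other was at the promoter of 1110021J02Rik (chr17:29854044-29854143), where 2 of 5 CpGs were called. Over all 5 CpGs it read 31.9%, 40.9% and 34.8% in PBS and 43.8%, 58.2% and 39.6% after NP-MTAza, so its groups overlapped.

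Promoters, taken from 2000 bases upstream to 500 bases downstream of the start site, lost fewer points than the rest of the genome. With each CpG counted equally, the 222105 promoter CpGs read 34.8%, 36.9% and 34.7% in PBS and 24.0%, 24.1% and 23.3% after NP-MTAza, a loss of 11.6 points. The 324567 gene body CpGs lost 27.7 points, and the 267867 intergenic CpGs 26.1. Over reads, which a few deep CpGs dominate in promoters, these losses were 15.6, 27.2 and 25.4 points. The promoter loss was smaller than the intergenic loss by 14.5 points with equal weight (13.6 to 15.1 over the pairs) and by 9.81 points over reads (exact permutation test of the difference, p = 0.1 for both). Within 250 bases upstream of a start site the mean level went from 24.2%, 26.5% and 24.1% to 17.1%, 17.1% and 16.4%. Farther out, in the bin centred at −4875 bases, it went from 78.0%, 79.6% and 78.0% to 52.0%, 51.6% and 49.5%.

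**Figure D3:**
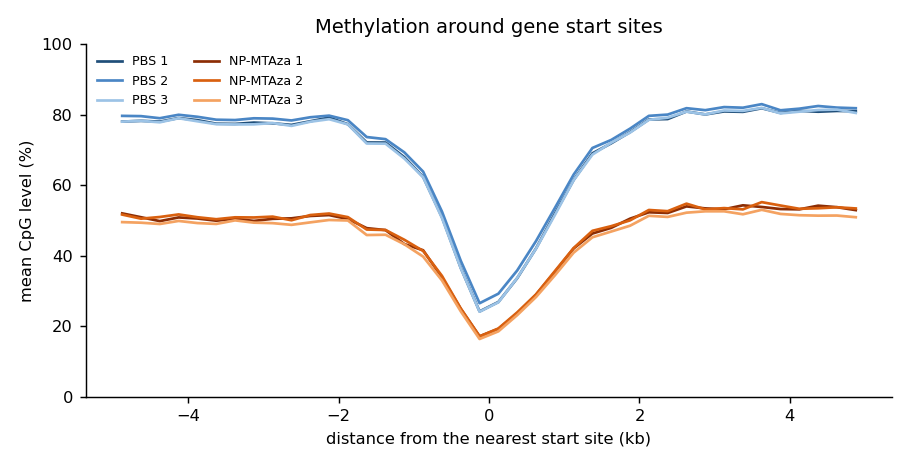
Mean CpG level (vertical axis, %) by distance from the nearest gene start site (horizontal axis, kb, bins of 250 bases) in each library. The curves are lowest at the start site, 24.1% to 26.5% in PBS and 16.4% to 17.1% after NP-MTAza just upstream of it, and the gap between the groups widens with distance.

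Between CpGs that started alike, promoters and the rest differed much less. Among CpGs at 90% or more in PBS, promoter CpGs lost 30.2 points, gene body CpGs 34.0 and intergenic CpGs 34.0 (each CpG equal). The promoter loss was 3.78 points smaller than the intergenic loss, between 3.56 and 3.96 in the 9 pairs. Gene bodies and intergenic sequence differed by 0.0539 points, with pairs on either side of 0 (exact permutation test, p = 0.3). Exons lost 31.3 points and introns 35.1, a difference of 3.74 points (3.61 to 3.93). CpGs within 500 bases of a start site lost 28.3 points, those 2 to 10 kb away 33.7 and those 50 to 200 kb away 34.7.

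The number of neighbouring CpGs divided this class further than the genome part did. CpGs were counted in the 101 bases centred on each CpG of the top class. Those alone in their window read 95.5%, 96.1% and 95.8% in PBS and 58.2%, 58.8% and 57.0% after NP-MTAza, a loss of 37.8 points. Those with 2 to 3 CpGs lost 35.9 points, those with 4 to 6 lost 32.6, and those with 7 to 10 lost 27.1. Those with 11 or more read 97.0%, 97.5% and 97.1% and then 77.6%, 77.1% and 75.8%, a loss of 20.4 points. The gap of 17.5 points between the ends of this range held in every pair (16.8 to 18.1, exact permutation test, p = 0.1). Isolated CpGs kept 60.5% of their PBS level and the densest kept 79.0%. Where windows held 1 to 3 CpGs, the promoter loss was 0.787 points smaller than the intergenic loss, and where they held 7 or more it was 3.70 points smaller.

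CpGs inside CCGG, the sequence that MspI cuts, read lower after NP-MTAza than other CpGs of the same class. The 25592 such CpGs stood at 94.7%, 95.7% and 94.8% in PBS and 55.0%, 56.2% and 52.1% after treatment, a loss of 40.7 points. This was 7.71 points more than at all other CpGs of the class (6.44 to 9.33 over the pairs). CpGs between other bases lost from 30.8 points, for gCGc, to 34.6, for tCGa. The CCGG loss was the larger at every density, 43.2 against 36.8 points for isolated CpGs and 25.3 against 20.3 points where the window held 11 or more. These CpGs sit at fragment ends, and the part of library preparation in the difference was not tested. Outside CCGG the loss still fell from 36.8 to 20.3 points with density. On the X chromosome the class lost 31.3 points, 2.22 fewer than on the autosomes (1.52 to 2.72), which themselves ran from 32.7 on chromosomes 7 and 11 to 34.8 on chromosome 13.

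**Figure D4:**
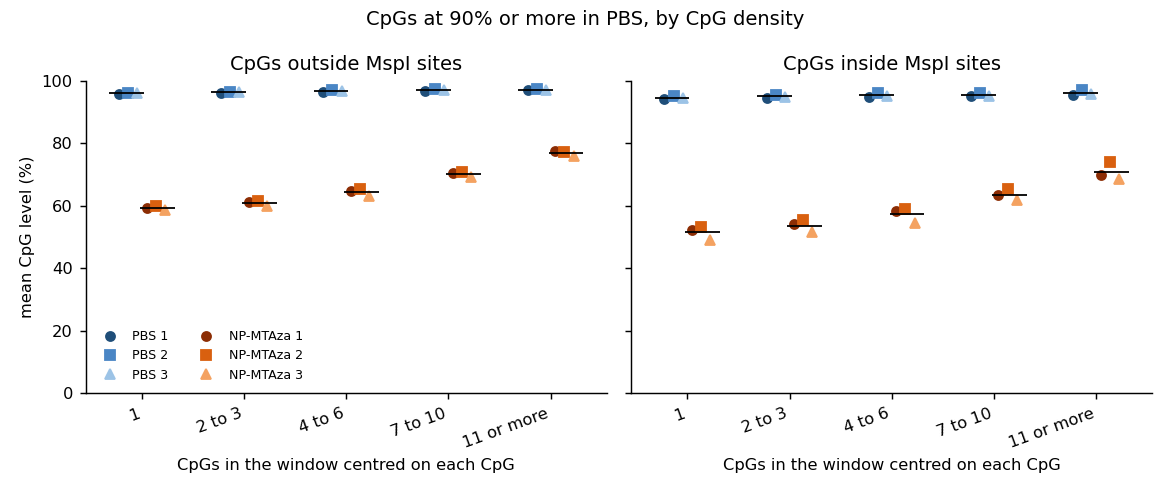
Mean level (vertical axis, %) of CpGs at 90% or more in PBS, by the number of CpGs in the 101-base window (horizontal axis), outside MspI sites on the left and inside them on the right. Points are libraries and bars group means, and the treated means rise with CpG density from 59.3% to 76.9% outside MspI sites and from 51.5% to 70.8% inside.

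Promoters were then tested gene by gene with limma, on levels over all reads of at least 5 shared CpGs. Of 10064 promoters 2746, or 27.3%, were called lower, which took an adjusted p under 0.05 and at least 10 points of loss. Leaving out PBS replicate 2 left 1686, or 16.8%, and leaving out any other single library left at most 2302. No promoter was called higher by limma, and 6 were higher at an unadjusted p under 0.05. The treated libraries were all under PBS in 45.7% of promoters and all over it in 0.0894%. The 5012 promoters under 10% in PBS could not lose the 10 points that a call needs, and 125 of them passed the adjusted p alone. Calls were made at 152 of 1296 promoters that began at 10 to 30%, at 606 of 963 at 50 to 70%, and at 600 of 670 at 90% or more, where the median loss was 27.4 points.

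The largest promoter losses, among those with 10 or more CpGs, were at Cebpe, Lrrc39, Cxcr7, 4921510H08Rik, Msh4, Gm5428, Gm4613 and Gli2. Cebpe (chr14:55330511-55333011, minus strand), a transcription factor of granulocyte maturation, read 94.7%, 84.5% and 94.4% in PBS and 42.9%, 35.6% and 41.6% after NP-MTAza, a loss of 51.2 points (limma adjusted p = 0.00154). Gli2 (chr1:120949416-120951916, minus strand), a transcription factor of Hedgehog signalling, read 77.0%, 83.9% and 79.0% over 23 CpGs and then 34.8%, 40.8% and 39.4%, a loss of 41.7 points (limma adjusted p = 0.00154). In both genes the treated libraries were well apart from PBS and close to each other. With the window cut at 500 bases upstream, the Gli2 promoter fell by 20.8 points. Cxcr7, an atypical chemokine receptor, lost 45.1 points, with treated levels of 56.2%, 35.9% and 47.4%. Msh4, which acts in meiotic recombination, lost 43.9 points, with treated levels of 59.4%, 39.2% and 62.4% that spread more than those of Gli2. Lrrc39 lost 47.2 points, and the other 3 lost 42.3 to 44.0.

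Among promoters with 10 or more CpGs and 80% or more in PBS, Pou3f1, Adra2c, Fezf1 and Ky lost least. Pou3f1 (chr4:124332896-124335396), a POU-domain transcription factor of neural lineages, read 80.2%, 89.3% and 89.9% in PBS and 86.8%, 91.1% and 80.8% after NP-MTAza. Adra2c (chr5:35619215-35621715), an α2-adrenergic receptor, read 92.5%, 93.9% and 90% and then 89.0%, 90.9% and 95.7%. The groups overlapped in each of the 4, and their losses of 0.233, 0.249, 1.83 and 3.65 points did not pass limma (adjusted p from 0.509 to 0.991). The direction of each turned when some single library was left out. As few as 75 reads stood behind a level here. Their windows held 7.64 to 13.8 CpGs on average, against a median of 5.70 over the 1350 promoters at 80% or more with at least 5 CpGs. In the 8 promoters that lost most, the average ran from 2.5 (Cxcr7) to 10.1 (Msh4), so the ranges overlapped. Among those 1350, 39 lost under 10 points and 211 lost 35 or more. The third of them with the fewest CpGs per window had a median loss of 31.4 points, and the third with the most 19.1.

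Gene bodies, without their promoters and with at least 10 shared CpGs, lost methylation almost throughout. Limma called 7724 of 8074 lower, or 95.7%, and none higher, also at an unadjusted p under 0.05, and in 95.9% the treated libraries were all under PBS. The median level over gene bodies went from 83.9% to 53.2%. Of the 4660 genes with both parts measured, 1363 were called in both. Among the 2118 of them whose promoter was under 10% in PBS, 1956 had a gene body that was called.

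Adam19, a membrane metalloprotease, had the largest loss of the gene bodies with 20 or more CpGs. Its 42 CpGs (gene at chr11:45868004-45960845) read 75.1%, 77.4% and 75.0% in PBS and 28.0%, 29.5% and 26.4% after NP-MTAza, a loss of 47.8 points (limma adjusted p = 3.41e-06). The treated libraries kept 36.9% of the PBS level, where the median gene body kept 64.1%. Bach2 (chr4:32325779-32673083), a transcriptional repressor best known in lymphocytes, read 88.3%, 90.1% and 88.9% over 83 CpGs and then 43.2%, 46.8% and 45.8%. Gli3 (chr13:15555068-15821859), a partner of Gli2 in Hedgehog signalling, read 91.8%, 94.2% and 93.3% and then 52.4%, 50.6% and 44.98%. Gm17569, Arfgef1, Pank1, Pcid2 and Pbxip1 lost 43.7 to 46.8 points. None of these 8 gene bodies overlapped between the groups.

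Among gene bodies with 20 or more CpGs and 80% or more in PBS, Dact3, Gal3st3, Espn and Pcdh8 lost least. Dact3 (chr7:17460666-17472650), a regulator of Wnt signalling, read 98.2%, 98.8% and 98.1% in PBS and 88.4%, 94.3% and 85.8% after NP-MTAza. Its 8.87 points passed the adjusted p (limma, 0.00111) but not the minimum of 10 points, which it met, at 11.3 points, without NP-MTAza replicate 2. Pcdh8 (chr14:80166587-80171119), a protocadherin, read 93.4%, 95.5% and 96.4% and then 83.0%, 79.6% and 86.3%, a loss of 12.1 points. Gal3st3 lost 10.9 points and Espn, which bundles actin in stereocilia, 11.3. Both fell under 10 points, and so lost their call, with a single library left out: Gal3st3 to 9.62 without PBS replicate 2 and to 9.52 without NP-MTAza replicate 2, and Espn to 7.61 without NP-MTAza replicate 3. CpGs in these 4 bodies had 10.0 to 16.2 CpGs in their windows on average, against a median of 3.35 over the 4745 gene bodies at 80% or more. Of those 4745, which include bodies with 10 to 19 CpGs, 6 lost under 10 points, and 1190 lost 35 or more.

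**Figure D5:**
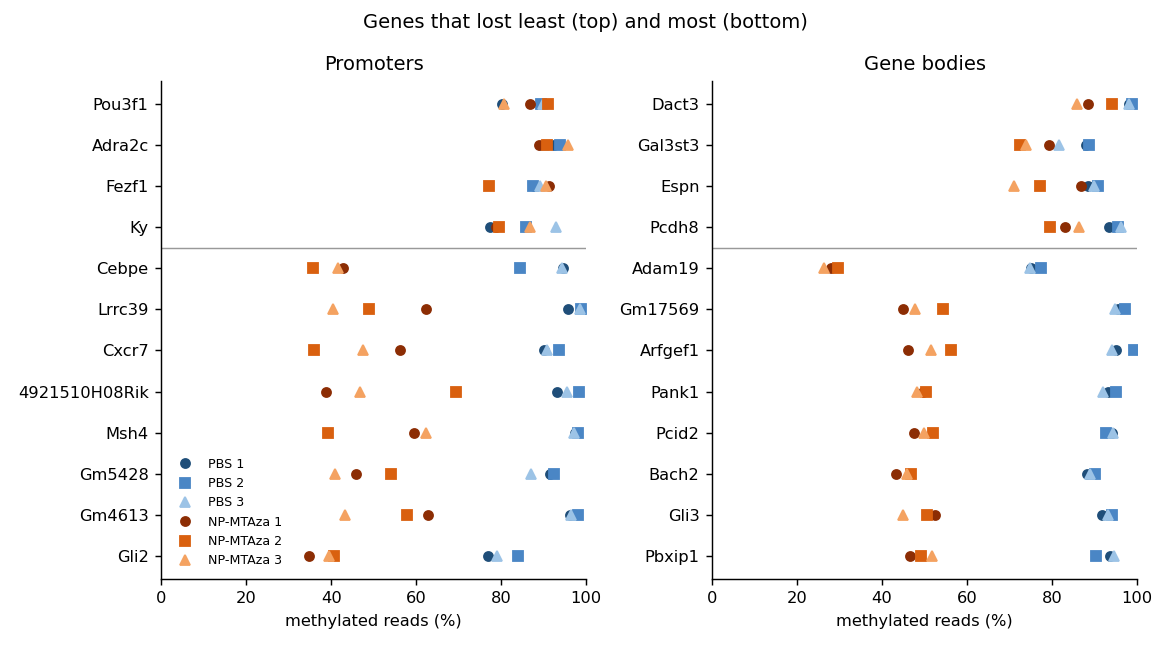
Methylated reads (horizontal axis, %) in each library for the 4 promoters and 4 gene bodies that lost least from 80% or more in PBS (above the line) and the 8 of each that lost most (below), among promoters with 10 or more CpGs and bodies with 20 or more. The groups overlap in the 4 promoters at the top. The 8 promoters and 8 gene bodies below the line were chosen among called ones without overlap, and there Cebpe loses 51.2 points and Adam19 47.8.

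Intergenic regions with 10 or more called CpGs lost up to 56.2 points at the called CpGs, a value that the call itself raises. Over all their measured CpGs the losses were smaller. The region 53037 bases from the start of Gpr137b (chr13:13432269-13432854) read 91.0%, 88.8% and 90.9% in PBS and 55.2%, 56.7% and 52.1% after NP-MTAza over 24 CpGs. The region 70537 bases from the start of Vav3 (chr3:109072755-109073034) read 96.8%, 93.9% and 94.0% and then 53.7%, 46.6% and 51.1% over 14 CpGs. Regions near Runx3 (chr4:134581625-134582126) and Wif1 (chr10:120586961-120587490) lost 41.8 and 39.7 points. The remaining 2 varied more among the treated libraries. The region nearest to Rpl21-ps12 (chr6:90855615-90855720), which overlaps a non-coding exon, read 39.3%, 52.0% and 63.9% after NP-MTAza, from 96.4% or more in PBS. The region nearest to Psd2 (chr18:36090256-36090467) read 56.6%, 28.5% and 30.1%, from 75.0% or more. All 6 were chosen among regions with every treated library below every PBS library, so that separation is no result.

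The stretches near Gpr137b and Vav3 printed above are close copies of each other, on 2 chromosomes. Letters matching in the same order make up 139 of the 153 and 157 bases, and their longest common run is 34 bases. That run occurs 42 times in mm9. Shared CpGs within 150 bases of a copy of it, 96 CpGs at 15 copies, read 89.0%, 88.5% and 87.3% in PBS and 63.2%, 58.2% and 53.8% after NP-MTAza. The intronic stretch of Adam19 at chr11:45882070-45882222, in which 7 CpGs went from 62.8%, 72.0% and 64.9% to 21.3%, 23.9% and 19.7%, is built in the same repeated way. Its commonest run of 24 bases, which is part of the B1 family of short interspersed elements, occurs 42476 times in mm9. The 7951 CpGs at 90% or more within 150 bases of a copy lost 36.4 points, where the whole class lost 33.5. Both sets were chosen after their values were seen, and reads from near-identical copies can be placed wrongly.

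Averaged over large windows of the genome, the top class was lower in each window that could be measured. Outside promoters and without the deepest CpGs, 1524 windows of 1000000 bases held 50 or more CpGs of this class. The treated libraries lay below PBS in all 9 pairs in each of them. The median loss was 34.5 points, and the middle 90% of windows ran from 30.6 to 38.4. The largest loss was 41.9 points, at chr15:55000001-56000000. The smallest was 22.3, over 98 CpGs at chr14:80000001-81000000. That window holds the Pcdh8 body named above, which has 56 shared CpGs, so the window and the body probably share CpGs. The order of the windows was partly shared between treated libraries, with Spearman coefficients of 0.379 to 0.428 across windows that share the same PBS values. The loss was smaller where the CpGs of a window were denser (Spearman coefficient −0.490 across the 1524 windows). Base composition and depth are shared by these points.

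With all 6 libraries, genes of polycystic disease were called about as often as genes at large. Of 16 measured promoters 4 were called, or 25% against 27.3% of all promoters, and 9 were under 10% in PBS. Without PBS replicate 2 there were still 4 of 16, against 16.8% of all promoters. All 16 measured gene bodies were called, and 15 without PBS replicate 2, against 95.7% and 94.6% of all bodies. Pkd1 (chr17:24684895-24687395), which encodes polycystin-1 and is heterozygous here, read 43.3%, 63.0% and 46.2% over 40 promoter CpGs in PBS and 29.2%, 26.6% and 33.7% after NP-MTAza. The groups did not overlap, and the 21.0 points passed limma (adjusted p = 0.0326), with PBS replicate 2 far above the other PBS libraries. The call was lost without PBS replicate 3, where the loss was 23.3 points, and without NP-MTAza replicates 1, 2 or 3, where it was 20.7, 19.4 and 22.9. Within 500 bases upstream of the start site the loss was 1.29 points. The Pkd1 gene body lost 20.3 points (limma adjusted p = 0.0176), and 18.2, no longer called, without NP-MTAza replicate 1. The bodies of Dzip1l, a gene of recessive polycystic disease, and Pkd2l2, a polycystin-2 relative, lost 37.0 and 36.6 points.

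Most promoters of primary cilium genes had little methylation to lose. Of 16 measured promoters 12 were under 10% in PBS and 2 were called, against 27.3% of all promoters. All 16 measured bodies were called, against 95.7% of all bodies, with a median that went from 93.6% to 56.9%. Ift140, a subunit of the retrograde transport complex of cilia, read 94.98%, 95.5% and 94.1% in its body and then 54.9%, 58.4% and 45.2%. Rpgrip1l, of the ciliary transition zone, lost 43.1 points. The promoter of Kif3a, a kinesin-2 motor subunit that builds cilia, read 54.2%, 67.1% and 48.7% in PBS and 28.6%, 26.2% and 25.2% after NP-MTAza (limma adjusted p = 0.00638), but with the window cut at 500 bases upstream it lost 15.6 points and was not called (limma adjusted p = 0.142). Of housekeeping genes limma called 0 of 10 promoters, with 1 lower at an unadjusted p under 0.05, and 4 of 4 bodies.

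Regulators of kidney development began with more promoter methylation. Of 23 measured promoters 12 were called, 52.2%, and 8 without PBS replicate 2, from a median of 54.5% in PBS, against 27.3% and 16.8% of all promoters. Of 32 bodies 29 were called, against 95.7% of all bodies. Wt1, a transcription factor of the early kidney and the podocyte, read 90.4%, 91.8% and 89.5% and then 65.0%, 73.6% and 64.0%. Gata3 lost 27.4 points at its promoter and 34.0 in its body. Sall1 lost 20.5 points at its promoter (limma adjusted p = 0.0472), from 35.4%, 39.6% and 59.2% to 25.8%, 26.1% and 20.8%, a call that was lost when any single library other than PBS replicate 1 was left out, at 13.3 to 23.1 points, and with the window cut at 500 bases upstream, at 6.85 points. The body of Sall1 lost 12.8 points, and 9.27, no longer called, without PBS replicate 2. The promoter of Pax2 was at 0.502% to 3.55% in PBS and at 0.378% to 0.746% after NP-MTAza, while its body lost 26.9 points. Gdnf, a growth factor of the ureteric bud, read 68.1%, 63.7% and 45.4% at its promoter and then 61.8%, 34.1% and 46.9%, with groups that overlapped (limma adjusted p = 0.341), and its body lost 25.7 points.

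Of 26 measured Wnt pathway promoters 10 were called, 38.5%, and 7 without PBS replicate 2, against 27.3% and 16.8% of all promoters. Ctnnb1, which encodes β-catenin, read 97.9%, 93.4% and 96.7% over 5 CpGs of its promoter window (chr9:120840518-120843018) and then 54.9%, 65.3% and 49.3%, a loss of 39.5 points (limma adjusted p = 0.00156). These 5 CpGs had on average 2 CpGs in the 101 bases centred on each, so the level is not that of CpG-dense sequence. The body of Ctnnb1 read 58.5%, 61.7% and 50.4% and then 35.9%, 58.8% and 36.9%. There NP-MTAza replicate 2 fell among the PBS values, and the 12.98 points were not called (limma adjusted p = 0.0684). Without that library its loss was 20.4 points and was called, and without PBS replicate 3 it was 16.2 points and was called. Limma called 27 of 29 Wnt pathway bodies, against 95.7% of all bodies, among them Wnt10a with 39.3 points, Wnt2 with 39.0 and Wnt4 with 25.6. The bodies of Fgfr1, a fibroblast growth factor receptor, and Daglb, a diacylglycerol lipase, lost 31.7 and 32.8 points. The promoter of Dclre1c, a nuclease of DNA repair, was at 1.12% to 5.61% in PBS and 0% to 2.15% after treatment.

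The pathways that metformin and tolvaptan act on were also covered. Of 18 AMPK and mTOR promoters 4 were called, 22.2%, and of 17 promoters of cAMP and vasopressin signalling 5, 29.4%. Both were close to the 27.3% of all promoters. Without PBS replicate 2 the counts were 4 of 18 and 4 of 17, against 16.8% of all promoters. Eif4ebp1 (chr8:28368799-28371299), whose product restrains translation until mTOR phosphorylates it, read 60.3%, 58.5% and 67.3% over 9 promoter CpGs and then 19.2%, 22.5% and 17.2%, a loss of 42.4 points (limma adjusted p = 0.00154). It kept 31.6% of its PBS level, and its 3 treated libraries lay within a few points of each other. Prkaa2, a catalytic subunit of AMPK, read 91.7%, 82.8% and 93.8% at its promoter and then 49.0%, 28.4% and 53.7%. Limma called 17 of 20 AMPK and mTOR bodies and 23 of 25 bodies of cAMP and vasopressin signalling, against 95.7% of all bodies. Bodies of Rictor and Tsc1, in the mTOR network, lost 39.1 and 35.1 points, and those of Prkar2b, a regulatory subunit of protein kinase A, and Crebbp, a co-activator of CREB, 39.0 and 38.7. The promoter of Adcy5, an adenylyl cyclase, read 42.0%, 49.6% and 39.2% and then 26.1%, 25.8% and 23.2%, but with the window cut at 500 bases upstream it lost 4.34 points and was not called (limma adjusted p = 0.197).

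Germline genes, whose promoters somatic cells normally keep methylated, began high. All 17 measured promoters were called, from a median of 89.997% in PBS, and 10 without PBS replicate 2, against 27.3% and 16.8% of all promoters. Among all promoters that began at 70 to 90% the share called was 84.4%, and at 90% or more it was 89.6%. Piwil2, of the piRNA pathway, read 86.2%, 90.8% and 92.9% and then 38.9%, 59.8% and 53.8%. The median of the 17 kept 70.7% of its PBS level. Imprinted genes, which carry methylation on the copy from 1 parent, had 6 of 12 promoters called, and 4 without PBS replicate 2, from a median of 54.6% to 30.8%. The promoter window of Peg3 read 53.2%, 47.3% and 43.7% and then 29.7%, 30.3% and 16.4% (limma adjusted p = 0.0185), with 19.99 points and no call without PBS replicate 1, and 22.9 points and no call without PBS replicate 2.

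Tubule and collagen genes began with more promoter methylation than the median promoter. Against the 27.3% of all promoters called, and 16.8% without PBS replicate 2, the counts were as follows. Of 6 promoters of proximal tubule transport and metabolism 5 were called, among them Slc22a8, an organic anion transporter, at 86.3%, 87.9% and 89.1% and then 48.0%, 53.0% and 49.6%, and Amn, a partner of cubilin, with 34.7 points. Markers of other nephron segments and other cells had 8 of 11 promoters called, and 7 without PBS replicate 2. Slc12a1, the cotransporter of the thick ascending limb, lost 30.7 points and Aqp3, a water channel of the collecting duct, 31.7. Collagen genes had 11 of 19 promoters called, with Col1a2 at 97.3%, 100% and 95.7% and then 41.1%, 71.6% and 59.3%, and Col6a1 with a loss of 38.7 points. All 25 measured collagen bodies were called, against 95.7% of all gene bodies, and Col4a3 and Col4a4, collagens of the glomerular basement membrane, lost 38.2 and 40.2 points. The medians of these promoter lists in PBS were 76.5%, 72.1% and 49.7%, against 10.2% over all promoters.

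For genes of the methylation machinery, the interferon response and growth control, the shares over all features were 27.3% of promoters, 16.8% of promoters without PBS replicate 2, and 95.7% of bodies. Of 14 machinery promoters 5 were called, 35.7%. Hells, a helicase that assists DNA methylation, read 95.8%, 97.0% and 94.9% at its promoter window and then 61.1%, 57.2% and 57.1%. The bodies of Uhrf1, which guides DNMT1 to replicated DNA, and Tet2, which oxidises methylated cytosine, each lost 36.8 points. Of 11 promoters of the interferon and double-stranded RNA response 3 were called. Without PBS replicate 2 limma called 0, and 3 were lower at an unadjusted p under 0.05. Stat2 read 97.4%, 100% and 98.0% and then 30.4%, 80% and 52.3%, a spread in the treated libraries of almost 50 points (loss of 44.2 points, limma adjusted p = 0.0108, and 43.5 points and 0.0863 without PBS replicate 2). All 7 measured bodies were called, among them Eif2ak2, a kinase activated by double-stranded RNA, with 41.2 points. Growth control and tumour suppressor genes had 5 of 26 promoters called, 13 of the 26 being under 10% in PBS, and 3 without PBS replicate 2. Runx3 lost 25.4 points at its promoter, and the body of Brca1, a DNA repair gene, 42.5. Limma called 18 of their 22 measured bodies, or 81.8%, a lower share than over all bodies. Of these 22, 2 were under 10% in PBS and could not lose the 10 points of a call, against 124 of 8074 over all bodies. Of the genes that handle metformin and tolvaptan 1 promoter was measured, that of the transporter Slc47a2, which lost 23.8 points and was not called without PBS replicates 1 or 2, at 23.6 and 20.9 points. All 5 of their measured bodies were called.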

How the data were processed

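Reduced representation bisulfite sequencing was done by the authors as 100-base paired-end reads. Per the study's methods and processing notes, reads were trimmed with Trim Galore 0.4.4 and aligned to mm9 with Bismark 0.20.1 and Bowtie2, both strands of a CpG were merged and CpGs under 5 reads dropped. The deposited files give, for each CpG, the methylated and total reads as a pair and the level as a percent, and the read pair was used here. No other group entered.

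CpGs that passed this depth in each of the 6 files were annotated with GENCODE vM1 on mm9 in Python 3.11.15 (numpy 2.4.6, scipy 1.17.1, pysam 0.24.0). Levels were compared with exact two-sided permutation tests. Single CpGs were tested by a likelihood ratio test on pooled reads, and regions joined within 500 bases. Promoters (5 or more CpGs) and gene bodies (10 or more, promoters removed) were tested with limma 3.58.1 on arcsine square root levels, Benjamini-Hochberg adjusted over all genes. Tests were checked on simulated data in which single CpGs did not vary between libraries beyond read counting, so the check does not cover that spread. Named genes were the 8 promoters (10 or more CpGs) and 8 gene bodies (20 or more) with the largest called loss, the 4 of each with the smallest loss from 80% or more in PBS, the largest gains, genes the study discusses, and the 2 most lowered called promoters and bodies of each of 16 gene lists. A few genes that this rule names are not reported here. The members and lists were chosen with earlier results of these data known. Repeats could not be taken from the reference used, which is not masked. Other depth minimums, tests, promoter windows, weights and left-out libraries were tried.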

Additional observations from a re-analysis of the deposited data

How the results depend on the processing

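Mean loss and the losses by starting level and genome part kept their direction under every alternative run for them. Leaving out 1 library moved the loss under 10% between 0.144 and 1.39 points and the mean loss between 22.0 and 22.9. Calls moved more. With 10 or more reads per library there were 69734 hypomethylated and 3 hypermethylated CpGs, 39340 and 3 regions, 1179 promoters and 3297 gene bodies called lower, since fewer CpGs were tested, and with 20 or more 13186 and 0 CpGs, 8372 and 0 regions, 211 promoters and 459 bodies. The F test for overdispersion called 0 CpGs and 0 regions in either direction, its chi-square form, added after seeing the data, 20 hypermethylated CpGs in 14 regions, and limma 45116 and 3 CpGs in 32330 and 2 regions. A minimum of 25 points gave 368616 and 106 CpGs and 50 regions of gain. NP-MTAza replicate 3 alone against PBS gave 181 hypermethylated CpGs in 122 regions and 761 promoters called lower, with the lone library taken to vary like PBS. Promoters cut at 500 bases upstream gave 1526 called lower and 1 higher, limma on log2 ratios 1557 lower, and the doubled CpG minimum 4649 bodies lower. With 1 library left out there were 55 to 118 hypermethylated CpGs, 33 to 76 regions of gain, 1686 to 2302 promoters lower and 0 to 1 higher. Among named promoters without a call the sign turned. With 1 library left out the difference of NP-MTAza minus PBS ran from −3.37 to 2.51 points for Pou3f1, −2.19 to 1.18 for Adra2c, −4.32 to 2.74 for Fezf1 and −7.68 to 0.154 for Ky. It was 3.20 points for Fezf1 with 10 or more reads, and with NP-MTAza replicate 3 alone 2.35 points for Fezf1, 3.62 for Adra2c and 1.38 for Ky. The cause was not tested. Replicate numbers are shared by both groups, but same-numbered libraries did not deviate together (correlations across promoters and gene bodies of −0.0408 to 0.00817), so the numbers were taken as names only. With a replicate block limma called 2494 promoters and 7734 bodies lower and 0 higher, the mean loss was 22.5 points, the promoters of Pkd1, Sall1 and Slc47a2 were no longer called (limma adjusted p of 0.0608, 0.0798 and 0.0579), and the gene body of Ctnnb1 was (0.0233). On log2 ratios the promoter calls of Pkd1, Sall1, Adcy5, Peg3 and Slc47a2 also ended (limma adjusted p from 0.0695 to 0.0975). At a depth of 12 to 23 reads per CpG single levels are coarse.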
